A study of Bombus terrestris with 20 samples.

Results

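In ovary of Bombus terrestris workers, 37 genes were raised in 1 of the 3 libraries of ovary-inactive workers. They were chosen by their values: among the 10087 genes of the ovary table, each had at least 200 normalized counts in replicate 2 of ovary-inactive ovary, and at least 4 times the value of both replicate 1 and replicate 3. The 37 genes were 0.367% of the table. Because the ovary-inactive libraries chose these genes, their ovary values are given as a description, and nothing is read from a test of them.

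Ovary-active (OA) workers were adult workers several weeks old with ovaries at the upper stages of development, ovary-inactive (OI) workers were of closely matched age with ovaries at the lowest stages, and workers at stages in between were not sequenced. All came from queenright colonies, and partners of the same age were mostly not nestmates, so colony and phenotype cannot be told apart. Messenger RNA of brain, fat body, and ovary was sequenced in 3 libraries per tissue and phenotype, each from the pooled tissue of several workers, and messenger RNA of eggs laid within the hour by workers of separate small groups in 2 libraries, each from pooled eggs. Among the OI brain libraries, a library held more workers than the others, and another came from colonies obtained later. Fat body and ovary came from the same set of workers, but the sources used here do not say whether libraries with the same replicate number share workers. A pool does not show how many of its workers carried a transcript, and more cells of a type and more RNA per cell cannot be told apart in it. Tissue values are normalized counts, which are estimated counts scaled between the libraries of a tissue. Egg values are estimated counts corrected for gene length.

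In the bee ovary, each oocyte grows in a follicle together with nurse cells, which make RNA and pass it into the oocyte, and with follicle cells, which surround the oocyte and lay down the eggshell. A newly laid egg therefore holds mainly RNA that its mother made. A gene that nurse cells transcribe for the egg is present both in a growing ovary and in the egg, whereas a gene for the eggshell can be abundant in the ovary and scarce in the egg.

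Among the 3 libraries of OI ovary, replicate 2 had the most genes of this kind. Applied to each ovary library against the others of its phenotype, the same rule gave 27 genes for replicate 2, 3 genes for replicate 3, and 0 genes for replicate 1 of OA ovary, and 12 genes for replicate 3 and 0 genes for replicate 1 of OI ovary. Such counts were not particular to this library, as brain OA replicate 2 had 66 genes (0.657% of its table). Among the 9496 ovary genes with a mean of at least 10, a value at least 4 times both other OI libraries was found for 0.906% in replicate 2, 0.453% in replicate 3, and 0.0842% in replicate 1. The library was not higher throughout. It was the highest of the 3 OI libraries in 36.4% of these 9496 genes, and the median ratio of replicate 2 to the higher of the other OI libraries was 0.93. The estimated reads of the ovary libraries ranged from 23118229 to 31164294, and OI replicate 2 was the deepest. In this library 1 read was worth 0.77 normalized counts.

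**Figure D1:**
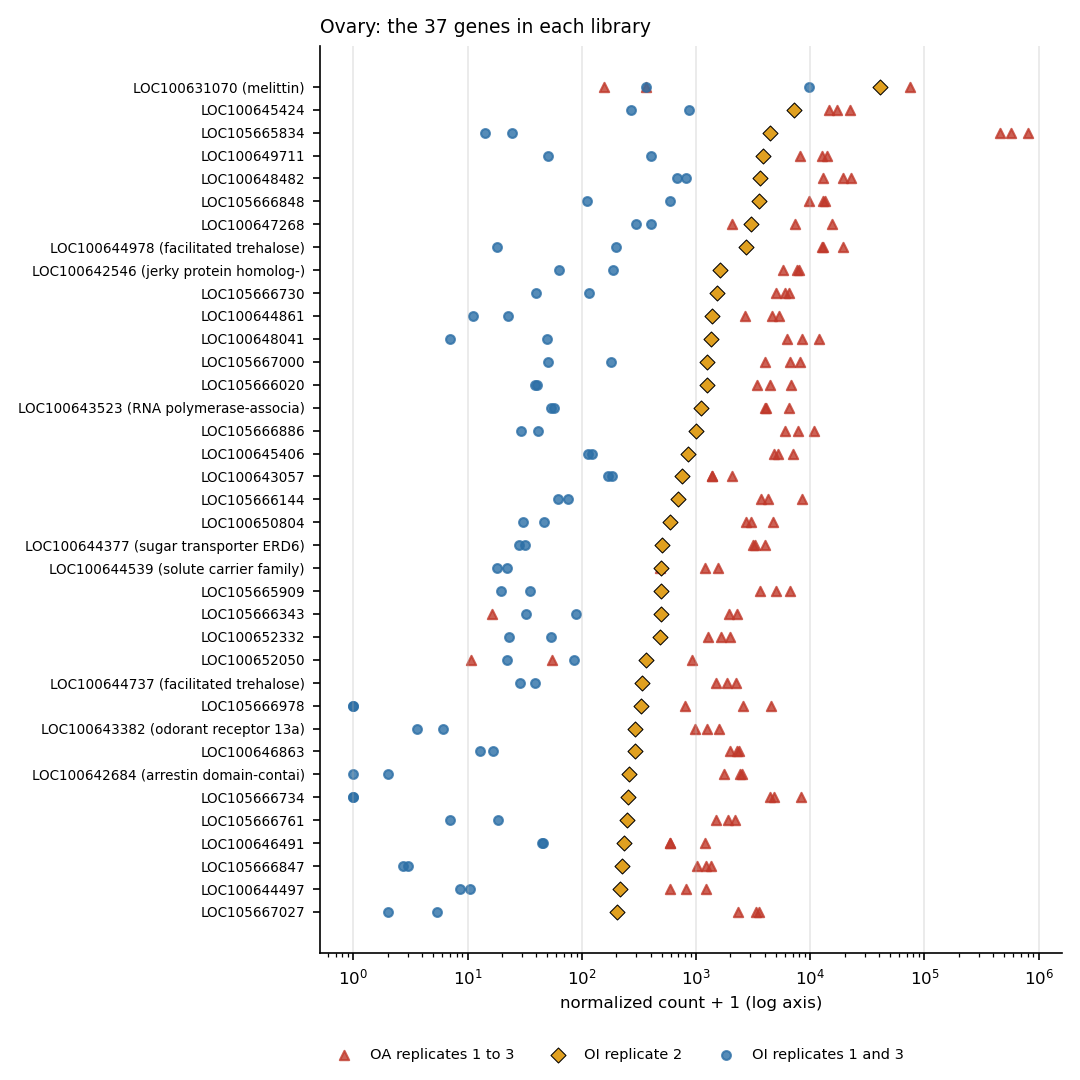
Ovary values of the 37 genes, ordered by OI replicate 2. Each row is a gene and each point a library, with normalized count + 1 on a log axis. For 32 genes, OI replicate 2 lies between the other OI libraries and the 3 OA libraries.

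For most of the 37 genes, OI replicate 2 stood between the other OI libraries and the OA libraries. In 32 genes its value was below all 3 OA libraries, which held for 39.3% of the ovary genes tested, and in 5 it lay within the OA range. It was above all OA libraries in 0 genes. The level in OI replicate 2 was a median of 20.02% of the OA mean, and in 29 genes it lay between 10% and 40%. The same median was 1.11% for OI replicate 1 and 0.804% for OI replicate 3. Set against the higher of those 2 libraries, OI replicate 2 was a median of 13.3 times higher, over a range of 4.11 to 254 in the 35 genes with a value above 0 in either of them. Of the other OI libraries, replicate 1 was above replicate 3 in 22 of the 37 genes (53.6% of all genes tested). It was at least 2 times replicate 3 in 13 genes, and replicate 3 was at least 2 times replicate 1 in 3.

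By limma's test of OA against OI ovary, 34 of the 37 genes were higher in OA workers with an adjusted p under 0.05, where 27.3% of all ovary genes tested were. Every OA library was above every OI library in 32 genes (33.3% of all). The OI libraries of this contrast chose the genes, so nothing is read from these counts. With OI replicate 2 left out, 34 were called.

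The genes are ordered here by their normalized count in OI replicate 2, which also grows with the length of a gene. LOC100645424 had the highest such count among the genes with non-overlapping phenotypes. Its normalized counts were 14678, 22316, and 17211 in OA ovary, against 7194 in OI replicate 2, 868 in OI replicate 1, and 269 in OI replicate 3. LOC100649711 had 12689, 13973, and 8096 in OA ovary, against 3832 in OI replicate 2 and 406 and 49.6 in OI replicates 1 and 3. Neither gene is named in the tables used here. LOC100648482 had 12962, 22633, and 19286 in OA ovary, against 3597 in OI replicate 2 and 676 and 816 in OI replicates 1 and 3. LOC105666848 had 9703, 12983, and 13375 in OA ovary, against 3558 in OI replicate 2 and 596 and 110 in OI replicates 1 and 3. In all 4 genes OI replicate 2 was below the lowest OA library and over 4 times above the other OI libraries.

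Of the 37 genes, 9 had a name that tells more than that the gene is uncharacterized. LOC100644978 is named facilitated trehalose transporter Tret1-like, after a family that carries trehalose, the main blood sugar of insects, across cell membranes. It had 13061, 12718, and 19261 in OA ovary, against 2714 in OI replicate 2 and 199 and 17.2 in OI replicates 1 and 3. LOC100643523 is named as a homolog of CTR9, a subunit of the Paf1 complex, which accompanies RNA polymerase II during transcription. It had 4107, 6457, and 4039 in OA ovary, against 1105 in OI replicate 2 and 52.4 and 55.6 in OI replicates 1 and 3. LOC100642546, named jerky protein homolog-like, belongs to a family of proteins derived from DNA transposases. It had 5831, 7990, and 7695 in OA ovary, against 1608 in OI replicate 2 and 185 and 62.7 in OI replicates 1 and 3. In each of these genes OI replicate 2 was between 18.1% and 22.7% of the OA mean.

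Some genes were at or near 0 in the other OI libraries. LOC100642684, named as arrestin domain-containing protein 17, had 1763, 2406, and 2521 in OA ovary, against 257 in OI replicate 2, and was listed at 0 in OI replicate 1 and at 1.01 in OI replicate 3. Proteins of this group serve as adaptors in the trafficking of membrane proteins. LOC100643382, named odorant receptor 13a, had 970, 1595, and 1257 in OA ovary, against 294 in OI replicate 2 and 2.62 and 5.05 in OI replicates 1 and 3. Of the 6 genes named as odorant or taste receptors in the ovary table, it was the only one among the 37. LOC105666734 had 4837, 8278, and 4429 in OA ovary and 253 in OI replicate 2, and LOC105666978 had 2602, 4493, and 800 in OA ovary and 327 in OI replicate 2. Both were listed at 0 in OI replicates 1 and 3.

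LOC105665834 had the widest gap between OI replicate 2 and OA ovary. It had 576390, 461111, and 811716 normalized counts in OA ovary, against 4479 in OI replicate 2 and 23.6 and 13.1 in OI replicates 1 and 3. Its level in OI replicate 2 was 190 times that of OI replicate 1 and yet 0.727% of the OA mean, the lowest of the 37 genes.

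The remaining genes among the 20 highest in OI replicate 2 followed the same order of libraries. LOC105666730, LOC100644861, LOC100648041, LOC105667000, LOC105666020, and LOC105666886 had between 1006 and 1537 in OI replicate 2, and LOC100645406, LOC100643057, LOC105666144, and LOC100650804 between 593.1 and 853. In these 10 genes OI replicate 2 was 12.2% to 47.2% of the OA mean and below every OA library.

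In 5 genes OI replicate 2 fell within the OA range, and in each of them the lowest OA library was far below the highest. Melittin (LOC100631070), the membrane-breaking peptide of bee venom, had 156, 74700, and 360 in OA ovary, against 40451 in OI replicate 2 and 367 and 9807 in OI replicates 1 and 3. LOC100652050 had 53.5, 925, and 9.79 in OA ovary, against 365 in OI replicate 2 and 21.1 and 83.8 in OI replicates 1 and 3. Both were high in OA replicate 2 as well, and they were the only 2 of the 37 genes that the same rule gave for that library. LOC105666343 had 1951, 2300, and 15.2 in OA ovary, against 488 in OI replicate 2 and 88.2 and 31.3 in OI replicates 1 and 3. LOC100647268 had 15428, 7366, and 2047 in OA ovary, against 3019 in OI replicate 2 and 406 and 295 in OI replicates 1 and 3. LOC100644539, named as a facilitated glucose transporter, had 1202, 1566, and 482 in OA ovary, against 498 in OI replicate 2 and 20.9 and 17.2 in OI replicates 1 and 3. Of the other 4 genes named for venom proteins, the venom protease LOC100642484 was also highest in OA replicate 2 but not raised in OI replicate 2, with 52.03, 557, and 49.9 in OA ovary, against 100.1 in OI replicate 2 and 175 and 95.03 in OI replicates 1 and 3. In fat body it had 10.1, 32.1, and 7.10 in OA workers, against 13.7 in OI replicate 2 and 2.23 and 0.862 in OI replicates 1 and 3, with OI replicate 2 the highest of the OI libraries, as it was for melittin. In the other 3, ovary OI replicate 2 did not reach 4 times the other OI libraries. The icarapin-like gene LOC100642807, for instance, had 113634, 110462, and 109444 in OA ovary, against 35558 in OI replicate 2 and 32953 and 31667 in OI replicates 1 and 3.

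Of the 37 genes, 29 were found in the RefSeq gene table of the assembly iyBomTerr1.2, a later assembly than the one the reads were counted on, which was used for the order of genes only. Within 10 consecutive protein-coding genes, from LOC100644377 to LOC100649711, 7 belonged to the 37. They were LOC100644377 (named sugar transporter ERD6-like 8), LOC100644497, LOC100644539 (facilitated glucose transporter member 8 of solute carrier family 2), LOC100644737 and LOC100644978 (both facilitated trehalose transporter Tret1-like), LOC100644861, and LOC100649711. Among the 23 protein-coding members placed on a chromosome there were 4 pairs of direct neighbours, and 0 of these pairs lay outside this run.

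The genes in between had the same order of libraries at a lower level. LOC100644618, named probable inositol transporter 3, had 545, 847, and 307.5 in OA ovary, against 149 in OI replicate 2 and 3.49 and 6.07 in OI replicates 1 and 3. LOC105667057 had 579, 746, and 477 in OA ovary and 63.9 in OI replicate 2, and was listed at 0 in OI replicates 1 and 3. Both missed the rule by its floor of 200, and the 1 further gene of the run, LOC125386345, was not in the ovary table. Beside the run, the genes looked at were LOC100644267 to LOC100643419 on one side and LOC100648799 to LOC100647821 on the other. None of them in the table reached the ratio of 4. Farther out, LOC100643057, which the rule took in with a ratio of 4.11, was separated from LOC100644377 by 5 protein-coding genes. On one side LOC100643419 had 1182, 1703, and 1437 in OA ovary, against 598 in OI replicate 2 and 728 and 278 in OI replicates 1 and 3. On the other side LOC100648799 had 12219, 14225, and 15118 in OA ovary, against 6575 in OI replicate 2 and 4136 and 3025 in OI replicates 1 and 3, and the next gene, LOC100648607, had 435, 572, and 390 in OA ovary, against 447 in OI replicate 2 and 251.4 and 1216 in OI replicates 1 and 3. Neighbouring genes with like names can share reads, so the split of reads among the transporters of this run is uncertain.

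**Figure D2:**
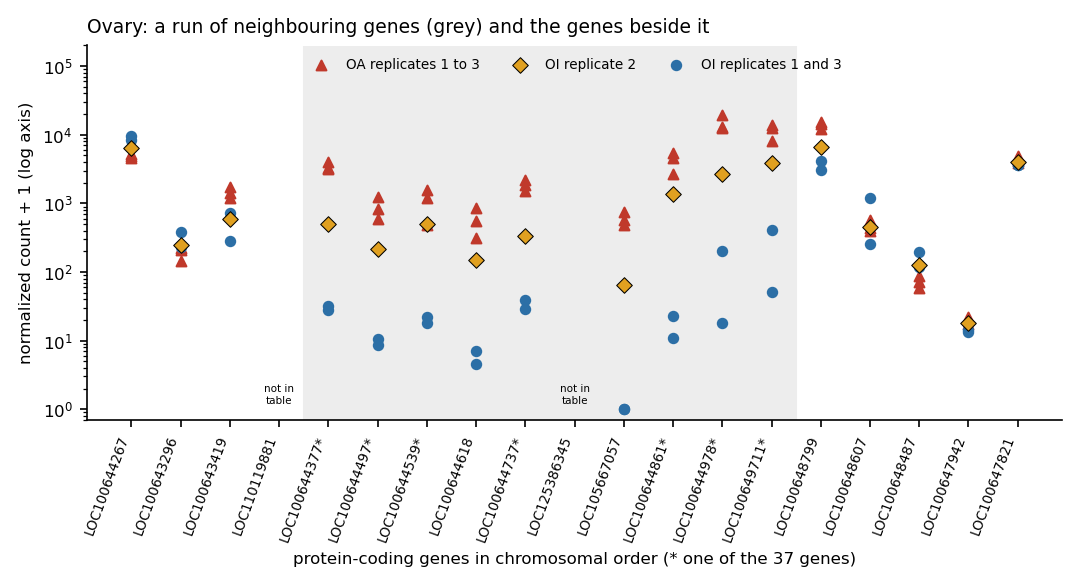
Ovary values of the 10 consecutive protein-coding genes (grey) and of the genes beside them, in chromosomal order, as normalized count + 1 on a log axis, with a point for each library. Across the run OI replicate 2 lies far above OI replicates 1 and 3. In the genes shown beside the run, OI replicate 2 is at most 1.59 times the higher of OI replicates 1 and 3.

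The transporters of the run had levels in OI replicate 2 of 14.3% (LOC100644377), 45.9% (LOC100644539), 17.9% (LOC100644737), and 18.1% (LOC100644978) of the OA mean. A list of sugar transporters, drawn up after these names had been seen, held 11 genes of the ovary table, of which 4 were among the 37. Its other genes did not all share the pattern. LOC100643557, named facilitated trehalose transporter Tret1, had 16504, 11720, and 15371 in OA ovary, against 3448 in OI replicate 2 and 4527 and 3967 in OI replicates 1 and 3, and was thus lowest in OI replicate 2 among the OI libraries.

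Worker-laid eggs held transcripts of most of the 37 genes, and many were among the most abundant in eggs. With expression taken as a zFPKM (a standardized log abundance) above -3 in both egg libraries, 32 of the 37 genes were expressed, where 77.6% of the ovary table was. In the study's own analysis, the great majority of genes higher in OA ovary were expressed in eggs too. Being expressed in eggs is thus not particular to the 37 genes. Among the 1000 genes with the highest values in eggs were 24 of the 37 (9.9% of the ovary table), and 7 were among the 100 highest in both libraries. The mean estimated count in eggs had a median of 28473 over these 32 genes, against 2207 over all 7828 genes expressed in eggs. The floor of the rule favours abundant genes, and no such floor was set on the genes compared. Of the 37 genes, 36 had at least 1000 normalized counts in an ovary library. LOC105667027 had 191251 and 207229 estimated counts in the egg libraries and ranked ninth in both. LOC100645424 had 139587 and 121045, LOC100648482 had 110130 and 135734, and LOC105666734 had 108454 and 125374. The trehalose transporter LOC100644978 had 74474 and 84333, and the arrestin domain-containing gene LOC100642684 had 48186 and 59127. No sample of eggs was compared with another group, and eggs and ovaries were prepared and scaled separately.

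The 5 genes not expressed in eggs were LOC105665834 (15.6 and 2.79 estimated counts), melittin (77.0 and 12.6), LOC100652050 (4.93 and 2.69), LOC100647268 (236 and 7.69), and LOC105666343 (listed at 0 in both). These included 4 of the 5 genes whose OI replicate 2 value lay within the OA range, and the one with the lowest share of the OA mean. Over the 32 genes expressed in eggs, OI replicate 2 was 4.32% to 47.2% of the OA mean (median 19.1%), and it was below all OA libraries in 31. Summed over these 32 genes, the normalized counts were 146469, 209806, and 174258 in OA ovary, against 39107 in OI replicate 2 and 4076 and 2164 in OI replicates 1 and 3. This was 0.511%, 0.731%, and 0.539% of the OA libraries, against 0.163% of OI replicate 2 and 0.0172% and 0.00926% of OI replicates 1 and 3. That OI replicate 2 exceeds the other OI libraries in these sums follows from the rule. Within these 32 genes the share of the OA mean bore little relation to the egg level (Spearman's rho -0.18 over 32 genes, which share their libraries).

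The level in eggs can be set beside the ovary values over a wider set of genes. As a description only, with limits chosen after the values were seen, 79 genes had at least 500 normalized counts in every OA library and at least 16 times both OI replicate 1 and OI replicate 3 there. The set was thus chosen on low values in the same OI libraries that the ratio is taken against. Of these, 29 were among the 37, which meet the ratio of 4 by the rule. Any other gene of the set that meets it has under 200 normalized counts in OI replicate 2, because the rule took the rest. Of the 50 others, 15 had a mean of at least 2000 estimated counts in eggs, and 8 of these 15 were at least 4 times higher in OI replicate 2 than in both other OI libraries. Their median level in OI replicate 2 was 5.62% of the OA mean. The remaining 35 had less than 2000 in eggs, and 1 of them reached the ratio of 4, with a median level of 0.319% of the OA mean. With the members included, the ratio was reached by 35 of 42 genes with at least 2000 in eggs and by 3 of 37 genes with less. The rule, the set, and the ratio all use the same OI libraries, so these counts are no test of a link with eggs.

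Several genes with very high normalized counts in OA ovary were low in OI replicate 2. LOC100648536 had 998883, 608408, and 1834945 in OA ovary, against 119 in OI replicate 2 and 119 and 109 in OI replicates 1 and 3, with a mean of 605 in eggs. LOC100648421 had 250981, 261621, and 450181 in OA ovary, against 706 in OI replicate 2 and 822 and 903 in OI replicates 1 and 3. LOC105665921 had 88441, 79853, and 122141 in OA ovary, against 53.2 in OI replicate 2 and 11.3 and 36.4 in OI replicates 1 and 3. LOC105665834 was the exception among these, with 4479 in OI replicate 2 and next to none in eggs. Conversely, among genes high in eggs, LOC100643514 (named ejaculatory bulb-specific protein 3) and LOC100643802 (ecdysteroid-regulated 16 kDa protein) were not raised. LOC100643802 had 17904, 15670, and 24640 in OA ovary, against 1090 in OI replicate 2 and 778 and 975 in OI replicates 1 and 3.

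**Figure D3:**
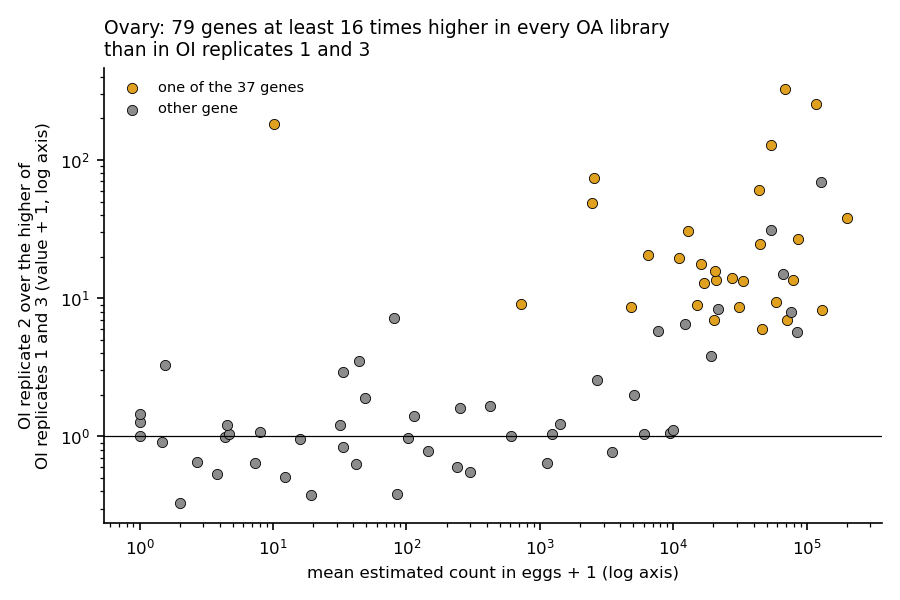
The 79 genes of high OA level, by mean estimated count in eggs + 1 (x axis) and by the ratio of OI replicate 2 to the higher of OI replicates 1 and 3 (y axis), each value + 1, both axes logarithmic. Each point is a gene. Genes with over 2000 estimated counts in eggs mostly lie above a ratio of 4. Those with fewer mostly lie near a ratio of 1, with LOC105665834 at the upper left. Of the 42 genes with at least 2000 in eggs, 27 were chosen by the rule that sets this ratio. Of the 15 others, 8 reached it, against 1 of the 35 others with less than 2000. Each of these others reaching it had under 200 normalized counts in OI replicate 2, because the rule took the rest.

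In fat body, the tissue that makes yolk proteins and stores energy, most of the 37 genes were scarcely expressed. The fat body table held 31 of them, 25 of which were under 100 normalized counts in every library, and 19 passed the filter on low values and were tested. By limma's test with Benjamini-Hochberg adjustment, 0 were higher and 0 were lower in OA workers, where 0.96% of all genes tested were higher and 1.97% lower. At an unadjusted p under 0.05 there were 7 of the 19 (2248 of all 8850). Every OA library was above every OI library in 5 of the 19 (15.6% of all genes tested) and below in 1 (15.2%). The study's own analysis with DESeq2 called more fat body genes than this limma test, among them LOC105665834 as higher in OA workers.

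In fat body the genes expressed in eggs were not raised as a group in OI replicate 2, but most had few reads there. Of the 26 such genes in the fat body table, 24 were under 100 in every library, and their values summed to 325, 346, and 462 in OA fat body, against 223 in OI replicate 2 and 270 and 217 in OI replicates 1 and 3. OI replicate 2 was the highest OI library in 7 of these 24. The OA mean was above the OI mean in 21 of the 24, at levels of a few reads for many of them, and in 41.9% of the 2077 fat body genes under 100 in every library. LOC100644978, for example, had 7.06, 13.1, and 41.6 in OA fat body, against 0.857 in OI replicate 2, and was listed at 0 in OI replicates 1 and 3 (log2 difference 3.78 ± 0.80 SE, adjusted p = 0.052, limma). LOC100645424 had 22.2, 10.7, and 37.5 in OA fat body, and was listed at 0 in OI replicate 2 against 5.57 and 0.862 in OI replicates 1 and 3 (3.25 ± 0.82, adjusted p = 0.072, limma).

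Among the 19 genes tested, fat body OI replicate 2 was at least 4 times both other OI libraries in 2 (0.147% of all genes tested), which were melittin and, at a level of 1 read, LOC100644978. In 3 it was at least 2 times both (0.542%). For OI replicate 1 the same counts were 1 and 1 of 19 (0.192% and 1.11% of all), and for OI replicate 3 they were 0 and 1 (0.0226% and 0.192%). Melittin had 6921, 8693, and 6915 in OA fat body, against 10330 in OI replicate 2 and 20.1 and 2.59 in OI replicates 1 and 3. It was thus high in all 3 OA libraries and in OI replicate 2, whereas in ovary it was high in OA replicate 2 and OI replicates 2 and 3. The difference between the phenotypes in fat body was 6.34 ± 2.48 on the log2 scale (adjusted p = 0.16, limma), and with OI replicate 2 left out it was 9.75 (adjusted p = 0.0024). LOC105666343 had 24177, 29477, and 18829 in OA fat body, against 39433 in OI replicate 2 and 36251 and 43079 in OI replicates 1 and 3 (-0.73 ± 0.16, adjusted p = 0.055, limma). LOC100652050 had 5576, 3943, and 4257 in OA fat body, against 4550 in OI replicate 2 and 6506 and 5329 in OI replicates 1 and 3. LOC100648482 had 17825, 17799, and 8078 in OA fat body, against 13097 in OI replicate 2 and 5123 and 18039 in OI replicates 1 and 3. These were the 4 genes of the 37 with at least 1000 in any fat body library, and 3 of them were not expressed in eggs.

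**Figure D4:**
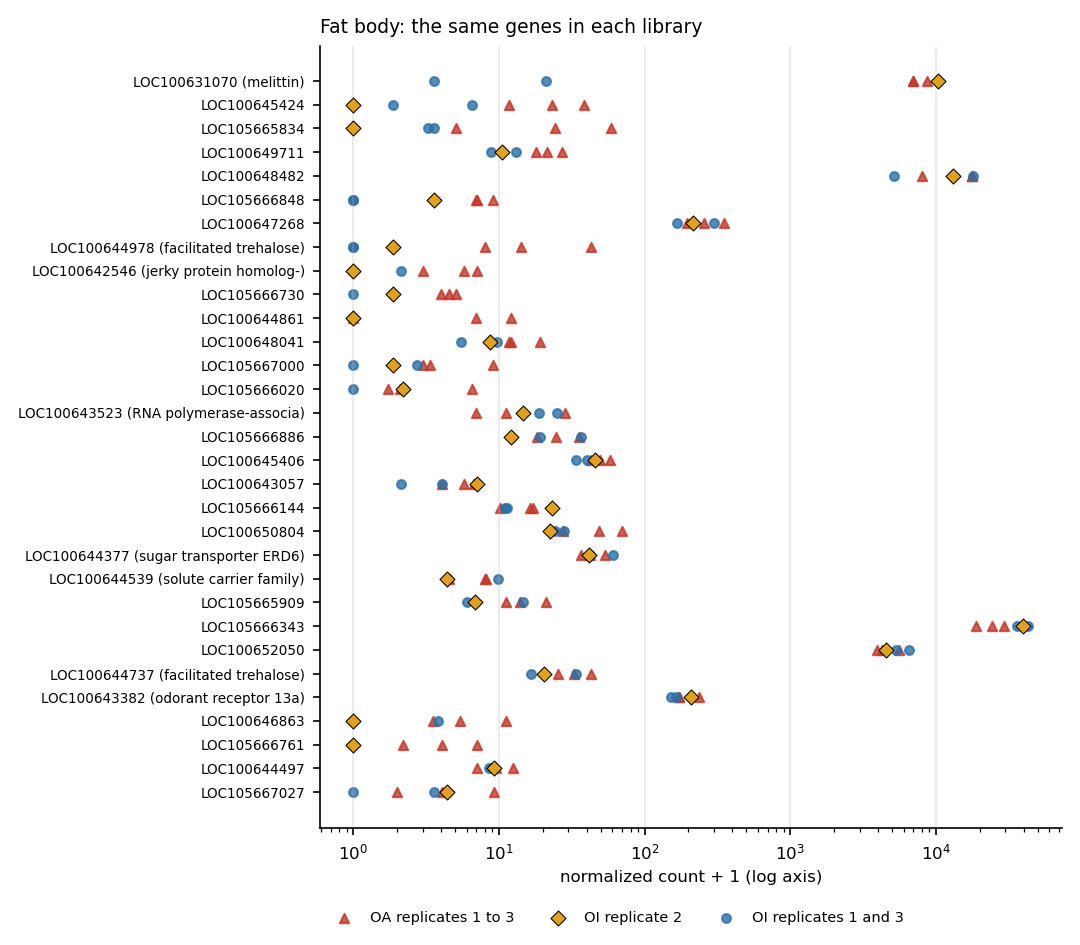
Fat body values of the 31 genes found in its table, in the order of their ovary level in OI replicate 2. Each row is a gene and each point a library, with normalized count + 1 on a log axis. Melittin is the gene whose OI replicate 2 value lies far from the other OI libraries, and 25 genes are under 100 in every library.

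In brain, 27 of the 37 genes were in the table, 20 of them under 100 normalized counts in every library, and 18 were tested. The 1 gene higher in OA workers was LOC105665834 (0.0211% of all brain genes tested, or 2 genes, were higher), and 0 were lower (0 of all genes tested, by limma). At an unadjusted p under 0.05 there were 2 of the 18 (105 of all). LOC105665834 had 54.6, 53.03, and 44.7 normalized counts in OA brain, against 0.868 in OI replicate 2 and 0.986 and 1.94 in OI replicates 1 and 3, a log2 difference of 4.54 ± 0.33 (SE, adjusted p = 0.027, limma). The OI libraries thus held about 1 to 2 reads each, and with any 1 library left out the difference stayed between 4.42 and 4.74 with adjusted p of 0.071 to 0.45. In fat body it had 23.2, 58.2, and 4.06 in OA workers, was listed at 0 in OI replicate 2, and had 2.23 and 2.59 in OI replicates 1 and 3 (3.10 ± 0.98, adjusted p = 0.11, limma). The study's own analysis with DESeq2 called LOC105665834 higher in OA workers in brain, fat body, and ovary. The odorant receptor gene LOC100643382 was the other of the 18 whose OA libraries were all above the OI libraries (1.84% of all). It had 36.1, 56.6, and 40.6 in OA brain, against 18.2 in OI replicate 2 and 23.7 and 22.3 in OI replicates 1 and 3 (unadjusted p = 0.0066 and not called after adjustment, limma).

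Near the limits of the rule, the genes left out resembled those taken in. Just inside the ratio of 4 were LOC100643057 (4.11), melittin (4.12), and LOC100652050 (4.35), and just outside it were LOC100646544 (3.85), LOC105665828 (3.68), and LOC100645023, named mucin-5AC (3.60). Just inside the floor of 200 were LOC105667027 (203 in OI replicate 2), LOC100644497 (215), and LOC105666847 (222). Just outside it were LOC100643150 (199), LOC100647295 (182), and LOC100645510 (158). Of these, LOC100643150 differed from the rest, as it had 4.003, 6.36, and 2.77 in OA ovary and was thus high in OI replicate 2 alone. In all, 12 genes met the ratio with between 100 and 200 normalized counts in OI replicate 2.

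Markers of other cell types could be checked only in part, because names were at hand for 2202 of the 10087 ovary genes (21.8%), and for 12 of the 37. No marker list had a median ratio of OI replicate 2 to the higher of the other OI libraries that reached 4. The 4 germ line genes in the name table (bicaudal C, tudor, Ago3, and maelstrom homologs) summed to 62811, 86417, and 81576 in OA ovary, against 50554 in OI replicate 2 and 39941 and 34650 in OI replicates 1 and 3. Most of this sum was bicaudal C. OI replicate 2 was the highest OI library in 3 of the 4, with a median ratio of 1.27. The maelstrom gene had 6415 there, against 3200 and 3236 in OI replicates 1 and 3. The Ago3 gene was lower in OA ovary, with 2594, 2280, and 2071, against 5162 in OI replicate 2 and 4494 and 6059 in OI replicates 1 and 3. The highest ratio of a list, 3.22, was that of the 1 vitellogenin-like gene in the fat body list, with 371 in OI replicate 2 against 115 and 83.9 in OI replicates 1 and 3. The 1 muscle gene, a troponin, had 6453 in OI replicate 2 and 6638 and 9399 in OI replicates 1 and 3. The 4 cell cycle genes had a median ratio of 1.28, the 4 genes of the neuron list 0.999, and the 3 hemocyte and immune genes 0.133. The most abundant gene of the neuron list, LOC100644765 (CUGBP Elav-like family member 2), was taken in only by the word Elav in its name. The list of eggshell genes matched no name. The part of these differences in the values of the 37 genes was not tested.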

How the data were processed

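Reads were pseudoaligned by the authors with kallisto 0.46.1, with the Bter_1.0 transcriptome as target, and summed to genes with tximport. The tissue signal values, as deposited by the authors, are those counts divided by DESeq2 1.34.0 normalization factors within each tissue, run in R 4.1.3. The egg values, as deposited by the authors, are estimated counts of the scaledTPM kind, not normalized between the libraries. In the tissue libraries 59.8% to 99.9% of values were whole multiples (within 0.02 reads) of 1 constant per library, so whole reads were recoverable for only a part of the genes of most libraries, and no count model was used. Dividing by that constant, the tissue libraries held 23118229 to 34419599 reads and 1 read was worth 0.770 to 1.386 normalized counts. The egg libraries held 50166010 and 52324103.

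OA and OI were compared within each tissue with limma 3.58.1 (R 4.3.3, trend on abundance) on log2(normalized count + 1), for genes whose mean over the tissue's 6 libraries was 10 or more, with Benjamini-Hochberg adjustment over all of them and a threshold of 0.05. Fold changes on this scale understate those of low genes. zFPKM was recomputed in both egg libraries. TMM factors came from edgeR 4.0.16. Other steps used Python 3.11.15 with numpy 2.4.6, pandas 2.3.3, and, for the plots, matplotlib 3.10.9. The OA and OI pools had been paired by the authors by worker age, but the sources used here do not tie ovary and fat body pools to replicate numbers, so the main fit had no pairs. Replicates are pools of workers, so p-values measure the spread between pools.

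The 37 genes and all lists were chosen with earlier results of these data known. The genes named are the 20 highest in ovary OI replicate 2, those called in fat body or brain, those in a marker or pathway list, and those nearest each limit of the rule. LOC100642684, LOC105666734, and LOC105666978, the other genes given with values, the genes of the run, the sugar transporter list, and the 79 genes of high OA level were chosen after the values were seen. 1 gene that the rule leaves out is not reported here. Gene names come from the study's supplementary gene lists, which cover part of the table.

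Alternatives were other limits of the rule, other scalings, offsets, and filters, limma without trend, a block by replicate number, other egg thresholds, and leaving out each library.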

Additional observations from a re-analysis of the deposited data

How the results depend on the processing

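The count of genes under other limits of the rule was 49 with a floor of 100, 25 with a floor of 400, 49 with a ratio of 3, and 27 with a ratio of 8. It was 38 after total-count scaling, with 36 of the 37 kept, and 38 after TMM scaling, with 37 kept. In ovary, leaving out each library gave 31 to 35 called genes, and 34 were called under the other settings. The OI libraries of this contrast chose the genes, so nothing is read from these ovary counts either. In eggs, 29 to 34 genes were expressed under the other thresholds and with either library left out, and OI replicate 2 was below all OA libraries in 32 to 35 genes. In fat body, 0 genes were called in the fit reported, 1 without a filter on low values (LOC100644978), 2 after total-count scaling (LOC100644978 and LOC105666343), and 0 to 1 with each library left out. The single calls came without OA replicate 3 (LOC105665834), without OI replicate 1 (LOC100645424), and without OI replicate 2 (melittin). In brain, the 1 call was kept under the other scalings, offset, filter, and without trend, and leaving out each library gave 0.

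The correlations of the deviations of OA and OI samples with the same replicate number were -0.06, 0.16, and -0.18 in ovary, -0.24, 0.05, and -0.24 in fat body, and -0.22, -0.11, and 0.25 in brain. These numbers were not taken as pairs. The pools were paired by age, so the low values do not show that the samples are unpaired. In an order picked after all correlations were seen, OA replicates 1, 2, and 3 were set against OI replicates 3, 2, and 1. The correlations were then 0.20, 0.16, and 0.24 in ovary, 0.17, 0.05, and 0.33 in fat body, and 0.34, -0.11, and -0.29 in brain. With a replicate block, 34 genes were called in ovary, 0 in fat body, and 0 in brain, where LOC105665834 had an adjusted p of 0.88 (limma). That block joined samples of the same replicate number, which may not be the pairs made by age.

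Most values of these genes in fat body and brain rest on few reads, so differences there were hardly detectable at this depth. The OI replicate 2 pattern rests on 1 library without a repeat. Names cover 21.8% of the ovary table, so gene lists are incomplete. The causes of the calls gained or lost were not tested.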
